A study of Mus musculus with 8 samples.

Results

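Fibrillar collagen chains form the long, banded fibrils that give embryonic mesenchyme and, later, heart valves and vessel walls their tensile strength. The 10 genes described here were taken by name, as Col1a1, Col1a2, Col2a1, Col3a1, Col5a1, Col5a2, Col5a3, Col11a1, Col11a2 and Col27a1, out of the 55487 gene rows of a QuantSeq count table. QuantSeq reads the 3′ end of polyadenylated RNA, so a count does not grow with transcript length. All 10 rows were found, and 9 passed the filter on low counts. The row that did not pass, Col5a3, had at most 7 counts in any library.

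Cultures of E14-Tg2a, a mouse embryonic stem cell line, were compared between the parental line (genotype WT, 4 libraries) and line 4D (genotype Tbx1-/-, 4 libraries, called mutant below). Both lines were differentiated without serum towards precardiac mesoderm and taken on day 6, with no other treatment named. Tbx1 encodes a T-box transcription factor needed for the outflow tract. All mutant libraries came from 1 line, so the genotype and other properties of that line cannot be told apart. The labels call the libraries biological replicates but do not say whether each came from its own differentiation, and p-values measure the spread between these libraries.

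Each collagen molecule is a rope of 3 polypeptide chains, and which chains are made sets which molecules can form. Type I collagen usually joins a pair of Col1a1 chains with a Col1a2 chain, whereas type II and type III are built of Col2a1 or Col3a1 alone. Type V chains (Col5a1, Col5a2, Col5a3) co-assemble with type I and set fibril diameter. Type XI chains (Col11a1, Col11a2) do the same for type II in cartilage, and Col27a1 is a shorter-helix chain of cartilage and other tissues.

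Library totals lay between 3803561 and 6293907 counts. The RNA of Tbx1 itself followed the labels, with 39, 65, 38 and 22 counts in parental libraries 1 to 4 and 3, 0, 1 and 0 in the mutant libraries. The cultures held RNA of cardiomyocyte markers, of which 10 of 11 passed the filter, although 1 line alone can carry a gene past it. These markers do not by themselves show the labelled precardiac mesoderm. Their summed level was 627 to 3625 CPM in parental and 122 to 958 CPM in mutant libraries. Here CPM means counts scaled to a common library size with TMM factors, the unit of every level in this text. Pluripotency markers summed to 27.9 to 60.0 CPM in parental and 44.5 to 72.5 CPM in mutant libraries. Of 4 tested, 2 had positive estimates, and Klf2 alone was called, higher in the mutant line. Its levels were 12.3 to 23.6 CPM in parental and 35.5 to 45.8 CPM in mutant libraries (edgeR adjusted p = 0.0190). Pou5f1 was at most 2.54 CPM in any library. Mutant library 4 differed from the other libraries in holding 17.7% of its counts in a single ribosomal RNA gene, against 8.90% to 12.98% elsewhere, and had the lowest total. It was also low in cardiomyocyte RNA, with Ttn at 22.8 CPM against 248.6 to 291 CPM in mutant libraries 1 to 3 and Myl7 at 8.25 CPM against 127 to 142 CPM. Without this library the log2 differences of Col3a1, Col1a2 and Col5a1 were 2.19, 0.91 and 0.97, with edgeR adjusted p-values of 5.72e-06, 0.00169 and 0.00231.

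The genes share a structure that the choice by name did not use. In the GENCODE M21 annotation of GRCm38, the longest coding transcript of each chain had 51 to 67 coding exons, of which 21 to 33 were exactly 54 bases long. That is 41.2% to 54.1% of the coding exons per gene, against 0.675% over the longest coding transcripts of 21901 protein-coding genes. A 54-base exon encodes whole Gly-X-Y triplets, the repeat that winds into the triple helix. Genome spans differed far more than coding lengths: Col1a1 on chromosome 11 (94936224 to 94953042, plus strand) spans 16.8 kb with 1453 codons, and Col11a1 on chromosome 3 (114030540 to 114220718, plus strand) spans 190 kb with 1804 codons.

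Promoter sequences from RefSeq (GRCm38.p6) were at hand for 7 of the 10 genes. Those of the 3 chains that rose in the mutant line, and of Col11a1, which did not pass the test, are shown to let a reader see how unlike the promoters are. Each run gives the 250 bases before the RefSeq start, 5′ to 3′ on the gene's strand, and capitals mark matches on either strand to 6 short motifs. The TATA box was searched as TATAAA and the box bound by NF-Y as CCAAT. The GC box was searched with the letters GGGCGG, the E-box of helix-loop-helix factors with CANNTG. For the half-site of T-box factors the core GTGTGA was used, and for SOX factors the core ACAAAG. For Col1a2 (chr6:4505368-4505617) the RefSeq start lies inside the M21 gene, downstream of its annotated first base.
Col3a1, chr1:45311288-45311537, plus strand: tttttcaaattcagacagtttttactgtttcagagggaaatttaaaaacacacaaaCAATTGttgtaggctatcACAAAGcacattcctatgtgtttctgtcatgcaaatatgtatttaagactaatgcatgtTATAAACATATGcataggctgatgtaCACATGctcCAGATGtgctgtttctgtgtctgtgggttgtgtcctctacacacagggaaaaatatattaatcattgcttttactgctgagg
Col1a2, chr6:4505368-4505617, plus strand: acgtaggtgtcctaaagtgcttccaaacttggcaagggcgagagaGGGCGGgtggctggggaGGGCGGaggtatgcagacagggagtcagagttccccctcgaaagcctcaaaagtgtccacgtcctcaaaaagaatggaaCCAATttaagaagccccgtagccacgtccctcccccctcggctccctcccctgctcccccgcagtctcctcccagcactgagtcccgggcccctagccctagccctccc
Col5a1, chr2:27886175-27886424, plus strand: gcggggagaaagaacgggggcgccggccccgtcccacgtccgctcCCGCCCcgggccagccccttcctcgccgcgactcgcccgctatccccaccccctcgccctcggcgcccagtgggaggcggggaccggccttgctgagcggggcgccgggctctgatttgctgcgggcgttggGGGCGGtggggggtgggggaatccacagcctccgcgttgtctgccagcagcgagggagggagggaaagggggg
Col11a1, chr3:114030290-114030539, plus strand: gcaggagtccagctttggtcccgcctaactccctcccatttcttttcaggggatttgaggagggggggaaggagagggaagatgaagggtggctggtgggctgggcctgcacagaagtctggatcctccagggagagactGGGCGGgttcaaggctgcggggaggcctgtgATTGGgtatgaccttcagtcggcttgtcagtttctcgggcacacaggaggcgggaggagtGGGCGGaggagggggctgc

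Over the full window of 300 bases, which also takes in 50 bases from the start onwards, the promoter of Col3a1 was 37.7% G and C, at the 6.63th percentile of 32851 promoters, and that of Col5a1 was 75%, at the 96.1th percentile. Col3a1 held a TATAAA directly followed by an E-box, counted from base -117, and E-boxes also began at -194, -91 and -82. Its SOX core began at -176. Col1a2 and Col5a1 held no TATAAA and no E-box, and each had a pair of GC boxes. Of the 7 promoters, 6 held a GC box (35.7% of all promoters), 4 an E-box (72.3%), 3 a CCAAT box (37.4%), 2 a TATAAA (13.6%) and 1 each a SOX core (18.7%) or a T-box core (14.5%). The T-box core was in Col11a2. These matches describe letters in a window and are not evidence of binding.

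Of the 9 tested chains, 3 rose in the mutant line, namely Col3a1, Col1a2 and Col5a1, and 0 were called lower. Over all 13280 tested genes 1.42% were called in either direction and 0.745% were called higher in the mutant line. DESeq2 called 4 chains, again 0 of them lower, and 3.05% of all genes. In edgeR 5 of the 9 had an unadjusted p under 0.05, as did 11.9% of all tested genes, the share to set beside each such count for the lists below. The 4 mutant libraries all lay above the 4 parental ones for 3 chains, where the share among all tested genes was 3.49%, and all below for 0 chains, where it was 4.04%. The median log2 difference of the 9 tested chains was 0.65, against 0.0010 over all tested genes. In these bulk cultures, more cells that make a chain and more RNA per such cell cannot be told apart.

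**Figure D1:**
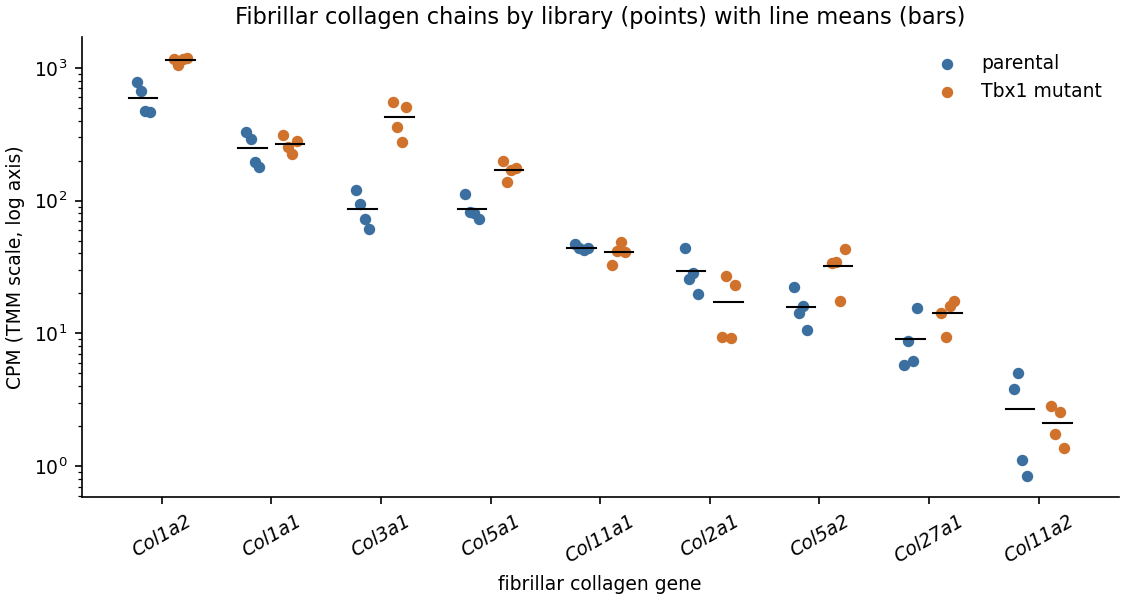
CPM of the 9 tested fibrillar collagen genes (log axis) in each of 4 parental (blue) and 4 mutant (orange) libraries, with bars at the line means. The mutant points of Col1a2, Col3a1 and Col5a1 lie wholly above the parental points, while those of the other 6 genes overlap.

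Col3a1 (ENSMUSG00000026043.18, chromosome 1, 45311538 to 45349706, plus strand), the chain of type III collagen in soft and distensible tissue, changed most. Its levels were 121, 94.4, 72.1 and 60.9 CPM in parental libraries 1 to 4 and 557, 355, 278 and 511 CPM in the mutant libraries. The lowest mutant library was above the highest parental one. The edgeR estimate was a 4.88-fold rise (95% interval 3.58 to 6.66), a log2 difference of 2.29 ± 0.21 (SE), adjusted p = 6.26e-06, and the gene ranked number 6 by p among all tested genes.

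Col1a2 (ENSMUSG00000029661.16, chromosome 6, 4504814 to 4541544, plus strand), the second chain of type I collagen, was the most abundant of the family by 3′-end counts. Parental libraries had 786, 668, 471 and 466 CPM, and mutant libraries had 1160, 1050, 1169 and 1193 CPM. The mutant libraries were close together, with a highest to lowest ratio of 1.14 against 1.69 in the parental line, and the lines did not overlap. The rise was 1.91-fold (95% interval 1.57 to 2.33), a log2 difference of 0.93 ± 0.14 (SE), edgeR adjusted p = 0.00108.

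Its partner Col1a1 (ENSMUSG00000001506.10) behaved otherwise. Parental levels were 329, 291, 194 and 179 CPM and mutant levels 310, 253, 226 and 279 CPM, so that every mutant library lay inside the parental range. The fold was 1.08 with a 95% interval of 0.846 to 1.37, which excludes the 1.91-fold estimate for Col1a2 but not a modest change either way, and the edgeR adjusted p was 0.865. The sign of the Col1a1 estimate turned when parental library 3 or 4 was left out, at -0.0051 and -0.025 on the log2 scale.

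Col5a1 (ENSMUSG00000026837.15, chromosome 2, 27886425 to 28039514, plus strand), the obligate chain of type V collagen, had 111, 82.0, 80.6 and 72.5 CPM in parental and 200, 138, 169 and 176 CPM in mutant libraries. The lines did not overlap. It rose 1.97-fold (95% interval 1.59 to 2.45), with an edgeR adjusted p of 0.00152.

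Col5a2 (ENSMUSG00000026042.16, chromosome 1, 45374321 to 45503282, minus strand), the other common type V chain, had a similar estimate but missed the threshold. Its levels were 22.4, 14.4, 15.96 and 10.5 CPM in parental and 33.6, 34.2, 17.6 and 43.4 CPM in mutant libraries. Mutant library 3 fell inside the parental range and the other 3 lay above it. The estimate was 2.03-fold (95% interval 1.33 to 3.08) with an edgeR adjusted p of 0.0942, which became 0.0380 without mutant library 3, 0.0357 with DESeq2 and 0.0107 without the low-count filter. An unclassified annotation on the same strand overlaps this gene and took 0 to 37 counts per library, and how reads were divided between them is not given in the sources used here.

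Neither type XI chain, nor Col2a1 or Col27a1, passed the test, and Col5a3 was not tested. Col11a1 (ENSMUSG00000027966.20) was the steadiest gene of the family in the parental line, at 46.7, 43.6, 42.4 and 44.0 CPM. It had 32.8, 41.8, 48.9 and 41.0 CPM in mutant libraries, a fold of 0.930 with a 95% interval of 0.722 to 1.20, and the mutant values lay on both sides of the parental ones. Col11a2 had 4 to 28 counts per library, with an interval of 0.258- to 2.46-fold. Its parental libraries alone differed by up to 5.96-fold, from 0.843 to 5.02 CPM. Its estimate of -0.33 on the log2 scale turned positive with limma-voom and without parental library 2.

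Col2a1 (ENSMUSG00000022483.17, chromosome 15, 97975602 to 98004695, minus strand), the chain of cartilage fibrils that is also made in notochord and in early heart mesenchyme, had the lowest estimate. Parental levels were 43.8, 25.5, 28.2 and 19.8 CPM and mutant levels 9.41, 27.2, 9.26 and 23.1 CPM. Mutant libraries 1 and 3 lay below all parental libraries and mutant libraries 2 and 4 within them. Its fold was 0.581 (95% interval 0.353 to 0.957, unadjusted), and over all genes the edgeR adjusted p was 0.365.

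Col27a1 had 5.82, 8.79, 6.22 and 15.6 CPM in parental and 14.1, 9.37, 15.98 and 17.6 CPM in mutant libraries. Parental library 4 overlapped the mutant values, and the edgeR adjusted p for the 1.57-fold estimate was 0.531. Col5a3 had 0, 1, 7 and 6 counts in parental and 0, 0, 7 and 1 in mutant libraries. Libraries with a count of 0 allow a level of up to 0.546 CPM in parental library 1 and 0.504 and 0.654 CPM in mutant libraries 1 and 2, taking 3 counts as the limit and counting error alone.

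**Figure D2:**
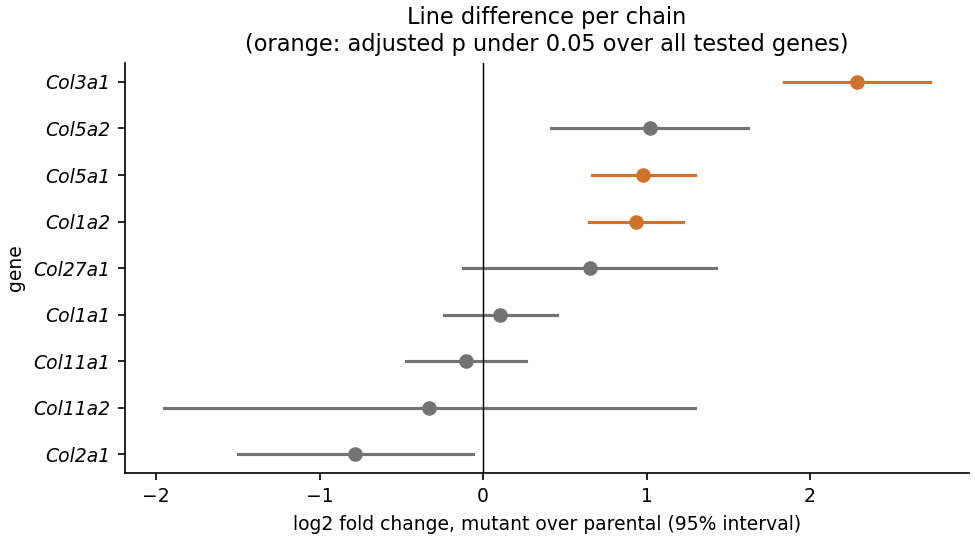
Log2 fold change of mutant over parental for the 9 tested chains with 95% intervals from the edgeR fit. The intervals of Col3a1, Col1a2 and Col5a1 (orange, called) lie above 0, that of Col5a2 also lies above 0 but did not pass after adjustment over all genes, and that of Col11a2 is the widest.

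The order of the chains by 3′-end counts changed in named places. From highest to lowest, parental means ran Col1a2 (598 ± 157 CPM, SD, n = 4), Col1a1 (248 ± 73.4), Col3a1 (87.0 ± 26.4), Col5a1 (86.6 ± 16.99), Col11a1 (44.2 ± 1.81), Col2a1 (29.3 ± 10.3), Col5a2 (15.8 ± 4.93), Col27a1 (9.11 ± 4.52), Col11a2 (2.70 ± 2.05) and Col5a3. Col3a1 and Col5a1 could not be ordered in the parental line, since each was the higher in 2 of 4 libraries. In the mutant line Col3a1 (425 ± 131 CPM, SD, n = 4) stood above Col1a1 (267 ± 35.8) in 4 of 4 libraries, against 0 of 4 in the parental line. Col5a2 likewise stood above Col2a1 in 4 of 4 mutant and 0 of 4 parental libraries. How well each 3′ end is captured can differ between genes, so the order is one of counts and not of protein or molecule numbers.

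Taken as a sum, the family held a larger part of the mutant libraries, although only Col3a1, Col1a2 and Col5a1 were called higher. Its 10 genes held 0.146% (95% exact Clopper-Pearson interval 0.143 to 0.149), 0.124%, 0.0909% and 0.0831% of all counts in parental libraries 1 to 4. In the mutant libraries the share was 0.239% (0.235 to 0.243), 0.196%, 0.194% and 0.219%. The lowest mutant share was above the highest parental share, with means of 0.111% ± 0.0293 and 0.212% ± 0.0214 (SD, n = 4). These sums are given without a test, since the genes were chosen.

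Within the family, Col1a2 made up more of the counts than all other chains together, 53.2% ± 1.10 in parental and 54.4% ± 4.47 in mutant libraries (SD, n = 4). Col3a1 went from 7.69% ± 0.513 to 19.8% ± 4.30. The part of Col1a1 went from 21.9% ± 1.34 to 12.6% ± 0.814, that of Col11a1 from 4.11% ± 0.892 to 1.98% ± 0.481, and that of Col2a1 from 2.60% ± 0.509 to 0.830% ± 0.480. Parts of a whole are tied to each other, so a smaller part does not by itself mean a lower level: the CPM of Col1a1 and Col11a1 overlapped between the lines.

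**Figure D3:**
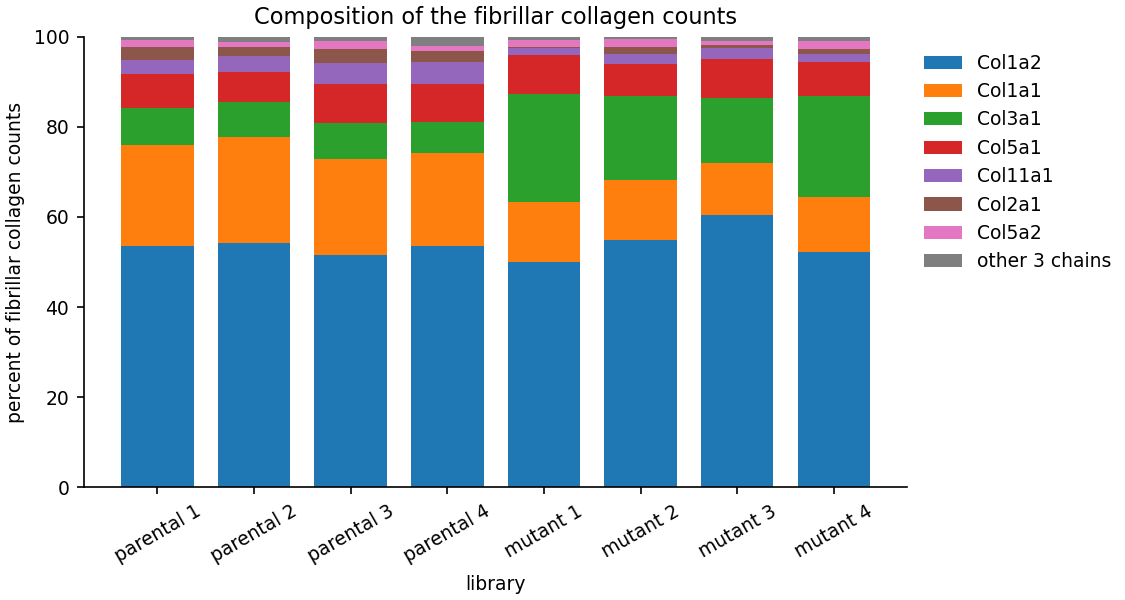
Percent of the fibrillar collagen counts taken by each chain in each library, stacked to 100%. The Col3a1 band is 6.998% to 8.20% in parental and 14.3% to 24.01% in mutant libraries, and the Col1a1 band is 20.5% to 23.6% and 11.7% to 13.4%.

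Ratios between chains were taken within each library, which removes the scaling between libraries. Of 9 ratios, 6 did not overlap between the lines, each with a two-sided exact permutation p of 0.0286, the smallest that 70 assignments of libraries allow, and 0.0429 after Benjamini-Hochberg adjustment over the 9. The ratios share chains and are not independent of each other. All 6 contain Col3a1, Col1a2 or Col5a1, the chains already called, so the count of 6 is not a separate result. How often ratios of other gene pairs fail to overlap was not computed.

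Col1a2 to Col1a1, the chains of type I collagen, stood at 2.39, 2.30, 2.43 and 2.61 in parental and 3.74, 4.15, 5.17 and 4.27 in mutant libraries. The mutant ratio was 1.77-fold higher, a log2 difference of 0.83, with SDs of 0.08 and 0.19 within the lines (n = 4, exact permutation p = 0.0286). The parental libraries, whose Col1a2 and Col1a1 levels differed among themselves by up to 1.69- and 1.84-fold, agreed in this ratio to within 1.13-fold. The levels of both chains moved together from one parental culture to the next, and the mutant cultures had another proportion.

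Col3a1 to Col1a1 stood at 0.366, 0.325, 0.373 and 0.341 in parental and 1.80, 1.40, 1.23 and 1.83 in mutant libraries, a 4.40-fold difference (log2 2.14, SDs 0.09 and 0.28, n = 4, exact permutation p = 0.0286). Every parental ratio was below 1 and every mutant ratio above it. Col3a1 also rose against Col1a2, from 0.131 to 0.154 in parental to 0.238 to 0.480 in mutant libraries, a 2.48-fold difference. The spread of that ratio was wider in the mutant line, where the highest library was 2.02 times the lowest, against 1.17 in the parental line.

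Col5a1 to Col1a1 was 0.282 to 0.416 in parental and 0.547 to 0.748 in mutant libraries, 1.79-fold higher. For the type V chains, Col5a2 to Col5a1 was 0.147 to 0.202 in parental and 0.105 to 0.248 in mutant libraries, a log2 difference of 0.02 (exact permutation p = 0.943, n = 4). The mutant libraries spread over 2.37-fold in this ratio, and the sign of the difference turned without parental library 4 or mutant library 2 or 4. Col11a1 to Col5a1 fell from 0.420 to 0.608 in parental to 0.164 to 0.303 in mutant libraries, 0.465 times the parental ratio.

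Col5a2 to Col1a1 and Col2a1 to Col1a1 overlapped between the lines, with log2 differences of 0.86 and -1.02. Each had an exact permutation p of 0.0571 (0.0643 adjusted, n = 4 per line), so neither passed.

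**Figure D4:**
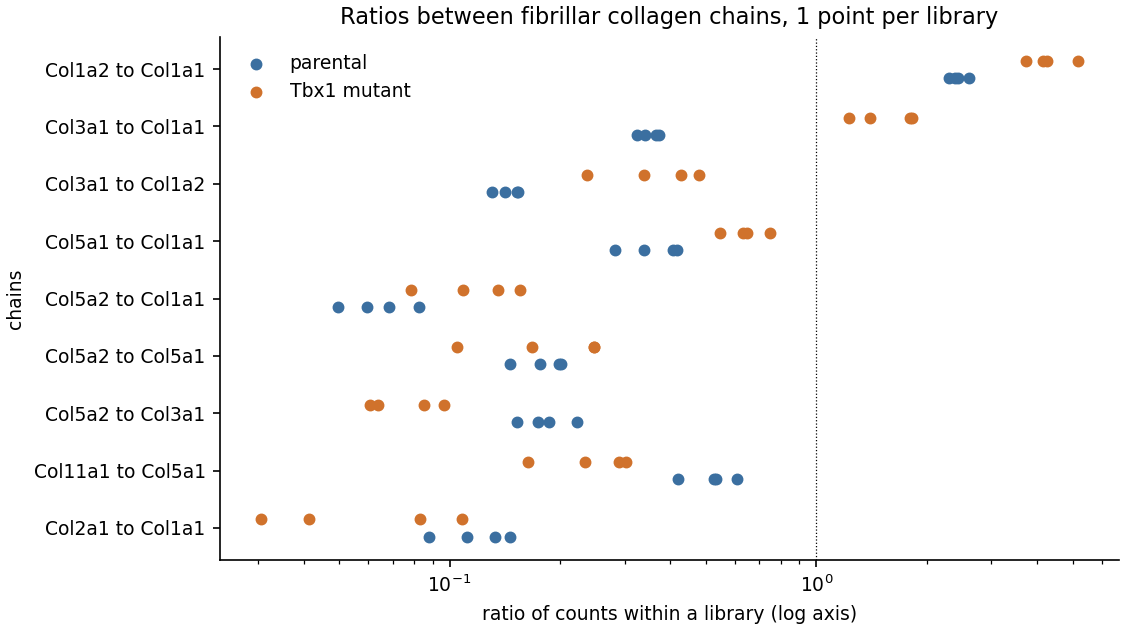
Ratio of counts between 2 chains within a library (log axis) for 9 pairs, with 1 point for each parental (blue) and mutant (orange) library. The Col3a1 to Col1a1 points of the lines lie on either side of 1, and the Col1a2 to Col1a1 points run from 2.30 to 2.61 and from 3.74 to 5.17.

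Col3a1 and Col5a2 are neighbours on chromosome 1, with 24.6 kb between them and their 3′ ends facing each other. Col5a2 to Col3a1 fell from 0.153 to 0.222 in parental to 0.0605 to 0.0965 in mutant libraries, 0.412 times the parental ratio (exact permutation p = 0.0286, n = 4). The neighbours thus differed in size of change, although both estimates were positive. On its other side the nearest tested gene, Gulp1 at 515 kb, had a log2 difference of 0.07 ± 0.29 (SE). Next to Col1a2 lay Bet1 (418 kb, -0.08 ± 0.27) and Casd1 (59.3 kb, 0.18 ± 0.17), neither of which passed the edgeR test. Next to Col5a1 lay Rxra (123 kb, -0.21 ± 0.22), a retinoid receptor gene that did not pass. On the other side lay Olfm1 (153 kb), a secreted olfactomedin, which rose from 61.5 ± 21.0 to 181 ± 78.2 CPM (SD, n = 4), with an edgeR adjusted p of 0.00415.

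The genes nearest in pattern were sought among 9026 tested genes with a mean of at least 10 CPM, by the root mean square difference over the 8 libraries of log2 CPM set relative to each gene's parental mean. Col1a2 and Col5a1 were close to each other, at 0.16, as rank 2 and rank 3 of each other's lists. Both had Rab3il1 nearest, at 0.13, a Rab exchange factor whose own edgeR adjusted p was 0.145. The other near genes were Mpped2 (called, but not without parental library 2 or 3 or mutant library 3, at an adjusted p of up to 0.0766), Arhgdib and Gm37474 for Col1a2, and Arhgdib, Gm37474 and Mbnl1 for Col5a1. Nearest to Col3a1 were Gpr50 (0.37), the embryonic and adult-type globin genes Hba-a1 (0.38), Hbb-bh1 (0.38) and Hba-x (0.51), and Postn (0.49). Hba-a1 has a near-identical copy, so its counts are uncertain. Distances for Col3a1 were larger than for the other 2 called chains. Few genes changed as much as Col3a1, and the measure is not scaled for size of change. Larger distances therefore do not by themselves mark a distinct pattern.

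Other genes of collagen biosynthesis and fibril assembly were read from 6 lists. Among 18 tested chains of other collagen types, 1 rose and 0 fell, with a median log2 difference of 0.22. The riser was Col14a1, a fibril-associated chain, at 4.73, 3.77, 7.18 and 13.3 CPM in parental and 17.5, 15.3, 33.2 and 45.4 CPM in mutant libraries (adjusted p = 0.0174). The call was lost without parental library 1, 2 or 3 or mutant library 3, at an adjusted p of up to 0.0890. DESeq2 called 1 gene of this list and 4 had an unadjusted p under 0.05.

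Among 32 tested genes of collagen folding, secretion and processing, 1 rose and 0 fell, with a median log2 difference of 0.20. That gene was Pcolce, whose product speeds the cleavage of the C-terminal propeptide from fibrillar procollagens. Its levels were 30.003, 26.9, 36.4 and 44.0 CPM in parental and 82.3, 73.7, 104 and 93.2 CPM in mutant libraries, without overlap, and the edgeR adjusted p was 0.000350. In this list 6 genes had an unadjusted p under 0.05, and DESeq2 called 2. Serpinh1, the collagen chaperone HSP47, had 566 ± 62.3 and 553 ± 65.1 CPM (SD, n = 4), a log2 difference of -0.04 ± 0.11 (SE). Bmp1, the propeptide protease itself, had a log2 difference of 0.73 ± 0.21 and did not pass (edgeR adjusted p = 0.108). Both of these were named after their values were seen.

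Among 18 tested fibril-associated genes 2 rose, Postn and again Col14a1, and 0 fell, with a median log2 difference of 0.28. In edgeR 5 of the 18 had an unadjusted p under 0.05. Postn encodes periostin, a matrix protein of valve and outflow cushions that binds collagen I. It had 31.6, 26.0, 11.5 and 5.06 CPM in parental and 117, 63.4, 46.5 and 73.4 CPM in mutant libraries (adjusted p = 0.00847, and 0.0515 without parental library 3). Of 11 tested collagen receptors and collagenases, edgeR called 0, as did DESeq2 and limma-voom, and 2 had an unadjusted p under 0.05.

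Among 28 tested transcription factors known to act on fibrillar collagen genes, 2 rose and 0 fell, with a median log2 difference of 0.14. In edgeR 9 of the 28 had an unadjusted p under 0.05. Twist1, a basic helix-loop-helix factor of mesenchyme, had 70.0, 78.9, 101 and 115 CPM in parental and 212, 158, 232 and 291 CPM in mutant libraries (edgeR adjusted p = 0.000551). Its parental libraries ordered oppositely to those of Col3a1, with library 1 lowest for Twist1 and highest for Col3a1. The mutant libraries did not, with library 2 lowest for Twist1 (158 CPM) and library 3 lowest for Col3a1 (278 CPM). A link between Twist1 and Col3a1 was not tested. Fli1, an ETS factor of endothelium and blood that is known to repress type I collagen genes, rose from 39.1 ± 7.75 to 75.3 ± 13.4 CPM (SD, n = 4), with an edgeR adjusted p of 0.00966. Without parental library 3 the Fli1 value was 0.0525. DESeq2, voom with quality weights and the fit with the replicate number each called 4 factors of this list, and the fit without the low-count filter called 6.

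In the list of 10 tested TGF-beta ligands, receptors and response genes, 0 rose and 1 fell, with a median log2 difference of 0.07. Tgfb1, a ligand known to induce fibrillar collagen transcription, had 32.2, 29.4, 15.3 and 21.1 CPM in parental and 12.1, 10.5, 9.99 and 7.15 CPM in mutant libraries. The lines did not overlap and its edgeR adjusted p was 0.0330. The call was lost with both forms of limma-voom and when parental library 1, 2 or 4 or mutant library 2, 3 or 4 was left out, with an adjusted p of up to 0.153. DESeq2 called 2 genes of this list, and 4 of the 10 had an unadjusted p under 0.05 in edgeR.

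**Figure D5:**
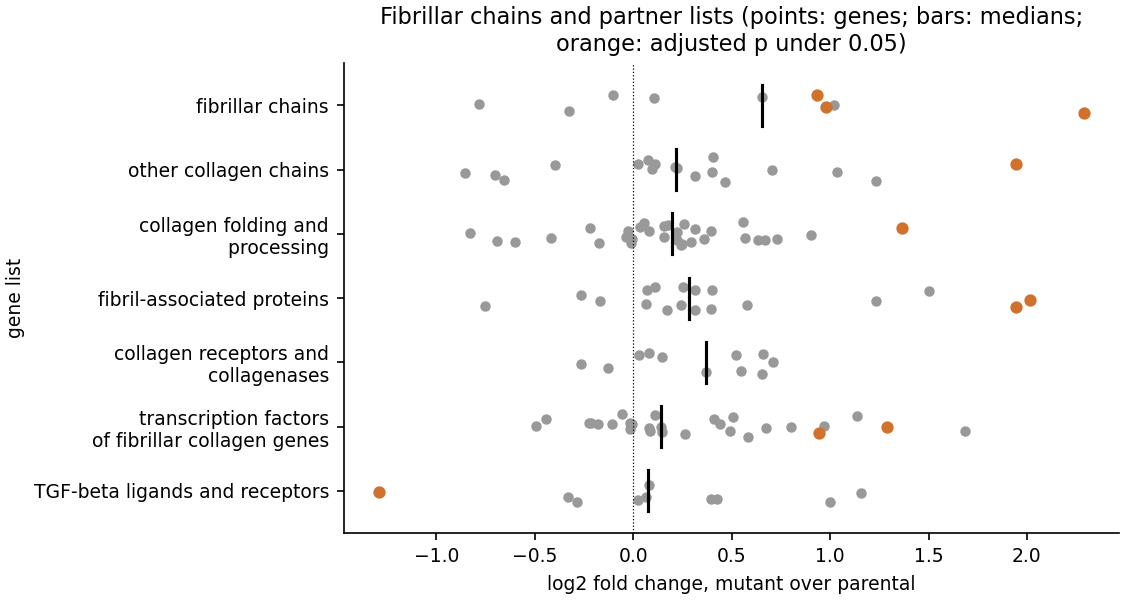
Log2 fold change of mutant over parental for each tested gene of the fibrillar family and of 6 partner lists, with bars at list medians and called genes in orange. Medians run from 0.07 for TGF-beta genes to 0.65 for the fibrillar chains, and the called gene on the left is Tgfb1.

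Some marker sums of cell types that make or lack these collagens differed between the lines and others overlapped. The summed level of 13 fibroblast and mesenchyme markers was 332 to 438 CPM in parental and 549 to 748 CPM in mutant libraries. Of its 11 tested genes 2, Twist1 and Postn, rose. Only 6 of the 11 had positive estimates, with a median log2 difference of 0.31, so the higher sum was not shared by the whole list. In edgeR 5 of the 11 had an unadjusted p under 0.05, against 11.9% of all tested genes. Besides Twist1 and Postn these were Prrx1, Pdgfrb and Twist2, with log2 differences of 0.97, 0.53 and 0.51, which did not pass after adjustment. Defining members were low: Lum was at 0 in all parental libraries and at most 2.52 CPM in mutant ones, and Dcn was at most 7.39 CPM. Pdgfra, a broad mesodermal marker, did not pass (log2 difference -0.17 ± 0.16). The 12 endothelial and blood markers summed to 519 to 826 CPM in parental and 1084 to 1825 CPM in mutant libraries, with 3 globin genes higher. Those 3 summed to 104 to 155 CPM in parental and 594 to 858 CPM in mutant libraries. The other 9 summed to 408 to 670 CPM and 458 to 966 CPM, which overlapped, and edgeR and DESeq2 each called 0 of them. In edgeR 0 of these 9 had an unadjusted p under 0.05. Smooth muscle markers summed to 243 to 1262 CPM and 370 to 507 CPM, with 0 of 6 tested called by edgeR or DESeq2 and 1 at an unadjusted p under 0.05, and all 6 estimates were negative, with a median log2 difference of -0.81. All 10 tested cardiomyocyte markers had negative estimates as well, with a median of -1.24. Of these edgeR and DESeq2 each called 0, and 7 had an unadjusted p under 0.05. The part of these cell types in the rise of Col3a1, Col1a2 and Col5a1 was not tested.

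For Col2a1, cartilage markers summed to 151 to 181 CPM in parental and 123 to 180 CPM in mutant libraries. Acan, Cnmd, Snorc and Chad were at 0 counts in all 8 libraries, and the sum rested mostly on Sox9, Hapln1 and Col9a1. Notochord markers summed to 172 to 279 CPM in parental and 121 to 171 CPM in mutant libraries. Of 7 tested, 2, Krt18 and Foxa2, both also epithelial, were called lower, and limma-voom called 1 gene of this list. The sum rested mostly on Krt18 and Krt8, and Krt8 did not pass (log2 difference -0.19 ± 0.19, SE). The part of cartilage and notochord markers in the level of Col2a1 was not tested.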

How the data were processed

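Counts per gene were deposited by the authors as 1 table of whole numbers for 8 QuantSeq libraries, without normalization. Per the submitters' processing notes, STAR, featureCounts and build mm10 were used. Versions, annotation and duplicate handling are not given in the sources used here. Of 55487 rows, all named a gene, and 55141 were given a symbol from GENCODE M21. Genes were filtered with filterByExpr (13280 kept, holding 99.5% of counts), scaled by TMM and compared with edgeR 4.0.16 in R 4.3.3 (glmQLFit and glmQLFTest, intercept and line). P-values were two-sided and adjusted by Benjamini-Hochberg over all tested genes with a threshold of 0.05, and 95% intervals are unadjusted. Ratios added 0.5 to each count and were compared by an exact permutation test. The fit was tested on simulated data. Library pairs within a line differed by a chi-square per degree of freedom of at least 7.20, so none was a duplicate. Precision follows from 3803561 to 6293907 counts per library, and the Clopper-Pearson intervals and the limits from a count of 0 cover counting error only, while the edgeR intervals also carry the spread between libraries. The members and lists were chosen with earlier results of these data known. Named genes are the members, Tbx1, up to 5 called genes per partner list, the 5 nearest in pattern and the nearest tested neighbours of called members, and exceptions are stated. Alternatives covered scaling, filters, DESeq2 1.42.0, limma 3.58.1, the replicate number as a block and leaving out each library. Protein sequences were not used here.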

Additional observations from a re-analysis of the deposited data

How the results depend on the processing

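The calls of Col3a1, Col1a2 and Col5a1 held in all 17 alternative fits, with adjusted p-values of up to 0.000120, 0.00838 and 0.0140. The number of fibrillar chains called was 3 or 4 throughout, and 3 to 4 over the fits without 1 library. Over all genes 188 were called, 439 without the low-count filter, 405 with DESeq2, and 103 to 235 without 1 library (103, 104 and 116 without parental library 2, parental library 3 and mutant library 3). Scaling by library size alone called 157 genes, 63.7% of them higher, against 52.7% with TMM. Same-numbered libraries correlated in their deviations at -0.033 to 0.102 (mean 0.028) and differently numbered ones at -0.078 to 0.062 (mean -0.0094). These ranges overlap, so the numbers gave little sign of pairing. Whether same-numbered libraries shared a batch is not given in the labels. With the replicate block 234 genes and 3 fibrillar chains were called. Pairing by number leaves the mean differences of the Col1a2 to Col1a1 and Col3a1 to Col1a1 ratios at 0.83 and 2.14 by arithmetic. Only the p-value can change (exact sign-flip p = 0.125, the smallest that 4 pairs allow). Without 1 library those ratios differed by 0.74 to 0.89 and 2.06 to 2.25, and the summed share by 0.0916 to 0.113 percentage points around 0.101.

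Signs turned for 4 genes and 1 ratio, none of them called: Col1a1 (-0.025 to 0.27 without 1 library), Col11a2 (-0.62 to 0.14, and 0.043 with limma-voom), Bet1 (-0.22 to 0.12), Gulp1 (-0.12 to 0.29, and -0.040 with quality weights) and the Col5a2 to Col5a1 ratio (-0.13 to 0.28). The cause was not tested. Col5a3, with at most 7 counts, could not be tested at this depth.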

Other observations

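Col24a1, a further fibrillar chain that the choice by name did not include, had 8 counts in parental library 1 and 5 in mutant library 1, means of 1.06 ± 0.572 and 0.482 ± 0.566 CPM (SD, n = 4), and fell under the low-count filter. The SOX factors that act on Col2a1 did not share a direction in their estimates. Mean Sox9 levels were 49.8 ± 10.2 (parental) and 36.7 ± 10.6 CPM (mutant), with a log2 difference of -0.45 ± 0.22 (SE). Sox5 had 21.6 ± 1.52 and 37.7 ± 6.87 CPM, a log2 difference of 0.80 ± 0.20 with an edgeR adjusted p of 0.0605, and its lines did not overlap. Sox6 had a log2 difference of 0.67 ± 0.22 with overlap. None of these passed the test in edgeR at its main settings. Scx, a factor of tendon and valve that acts on type I collagen genes, went from 1.27, 6.28, 4.95 and 8.22 CPM in the parental line to 9.91, 9.37, 15.3 and 32.4 CPM, without overlap but with an edgeR adjusted p of 0.115. All genes of this paragraph were chosen after their values were seen.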
